A study of Sus scrofa with 32 samples.

Results

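RETREG1 (ENSSSCG00000016792), 1 gene of the 17930 with a read in any library, was followed across 4 breed groups of pigs. It was chosen from earlier results of these data for its level, which was low in Landrace and high in the other groups. Its differences between groups are therefore given as a description, with no test. Tests were run on other genes, and on how other genes and measures of the libraries varied with RETREG1 between pigs of the same group.

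Loin muscle (longissimus dorsi) RNA was sequenced in 32 pigs aged 6 months, with 8 libraries in each group. DLDPL pigs were the cross of Duroc with Landrace and Dapulian, LDPL pigs were the cross of Landrace with Dapulian, DPL pigs were Dapulian, an indigenous Chinese breed, and L pigs were Landrace, a lean commercial breed. All 4 groups were labelled wild type and were kept under similar housing and feeding. The series asks which genes of muscle and fat formation vary between such breeds.

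RETREG1, also called FAM134B, is a protein of the endoplasmic reticulum (ER) membrane. Its reticulon homology domain bends the membrane, and its LC3-interacting region binds ATG8 proteins on the growing autophagosome, so that pieces of ER are carried to the lysosome and degraded, a process called ER-phagy. In humans, loss of the gene causes a hereditary sensory and autonomic neuropathy. In muscle, the ER is mostly the sarcoplasmic reticulum, which stores the calcium that drives contraction.

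Depth averaged 24972962 ± 2268551 reads per library in DLDPL, 24612294 ± 771859 in LDPL, 26184718 ± 3068135 in DPL and 26590633 ± 1158018 in L (SD, n = 8 each). Mitochondrially encoded genes took 14.8% to 29.7% of the reads in DLDPL libraries, 15.8% to 30.0% in LDPL, 22.2% to 37.3% in DPL and 17.3% to 24.8% in L. The 8 muscle fibre markers found by symbol had a summed level of 63590 to 87070 RPKM (reads scaled to gene length in kilobases and to library depth) in DLDPL, 64050 to 90110 in LDPL, 41970 to 79770 in DPL and 62280 to 105300 in L. The tissue label therefore matches its markers in every library. The replicate numbers of the L libraries form a series of their own and the labels name no batch. Whether a difference from L belongs to the breed or to the way the L pigs or libraries were handled cannot be told apart. The labels do not say beyond the number of pigs that each library came from its own animal, so p-values measure the spread between these libraries.

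RETREG1 was high in all 24 libraries of the groups with Dapulian ancestry and low in all 8 L libraries. In CPM (counts scaled to library depth, with TMM factors), the lowest, median and highest DLDPL libraries had 240, 467 and 656. The same values were 295, 549 and 1088 in LDPL. They were 369, 479 and 1049 in DPL, against 25.7, 33.4 and 54.6 in L. No library of the other groups overlapped with L: the lowest of them, DLDPL replicate 25, was 4.40 times the highest L library, replicate 10. The 24 other libraries overlapped with each other throughout.

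**Figure D1:**
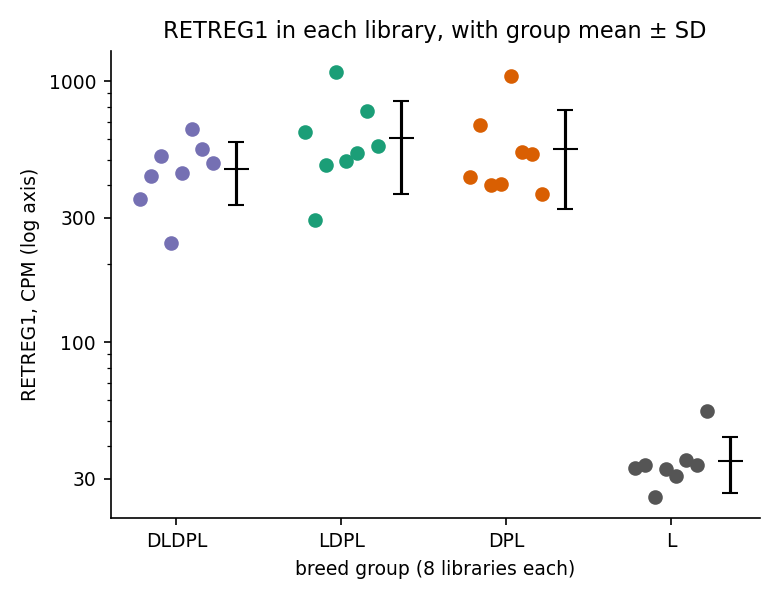
RETREG1 level in CPM on a log axis, with 1 point per library and the mean ± SD of each group (DLDPL, LDPL, DPL and L, n = 8 each). All 24 points of DLDPL, LDPL and DPL lie at 240 CPM or above, and the L points lie between 25.7 and 54.6 CPM.

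Mean RETREG1 levels were 461 ± 126 CPM in DLDPL, 608 ± 237 in LDPL, 550 ± 226 in DPL and 35.0 ± 8.47 in L (SD, n = 8 each). The order of the means was LDPL, DPL, DLDPL and L. On the log2 scale RETREG1 was 3.72 ± 0.24 (SE) higher in DLDPL than in L, a 13.2-fold difference. In LDPL it was 4.12 ± 0.25 higher than in L, which is 17.4-fold. In DPL it was 3.97 ± 0.25 higher than in L, which is 15.7-fold. These 3 differences share the L libraries. Among the groups other than L, the log2 differences were 0.14 ± 0.22 for LDPL over DPL, -0.26 ± 0.22 for DLDPL over DPL and -0.40 ± 0.22 for DLDPL over LDPL. Each of these 3 is smaller than the within-group SD of RETREG1, 0.46 on the log2 scale. That SD is the spread of single libraries and does not judge a difference of means. Whether LDPL, DPL and DLDPL differ in RETREG1 was not tested.

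LDPL, the cross of Landrace with Dapulian, lay at the DPL level and not midway between DPL and L. On the log2 scale, the point halfway between L and DPL is 134 CPM, and the LDPL mean was 2.10 log2 units above it. Each LDPL library, from 295 CPM upward, exceeded that point.

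The size of the difference placed RETREG1 near the top of all genes. In DLDPL against L, 13 of 12821 tested genes rose by more. In LDPL against L the number was 11, and in DPL against L it was 24. Genes with all libraries of the 3 groups above all L libraries made up 1.23% of those tested, and RETREG1 was chosen for lying among them. Among tested genes with a read in some L library, only 2 had a wider gap between the lowest of the 24 libraries and the highest L library. NR4A3, a nuclear receptor gene of the immediate early class, had a gap of 10.4-fold, with 206 ± 127 CPM in DLDPL, 129 ± 81.0 in LDPL, 156 ± 109 in DPL and 0.965 ± 0.417 in L. The other, ENSSSCG00000016700, has no symbol in the names used here and had a gap of 9.32-fold.

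Pigs of the same group differed in RETREG1 by more than they did in most genes of similar level. The highest library was 2.73 times the lowest in DLDPL, 3.68 times in LDPL, 2.84 times in DPL and 2.13 times in L. The coefficient of variation was 27.3% in DLDPL, 38.9% in LDPL, 41.0% in DPL and 24.2% in L. The within-group SD of RETREG1 exceeded that of 92.7% of the 232 genes within 0.5 log2 units of its mean level, and of 66.3% of all tested genes. Replicate 21 stood highest in DPL, with 1049 CPM, and the next DPL library had 680. Replicate 9 stood highest in LDPL, with 1088 CPM, and the next LDPL library had 770.

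The values rest on many reads. RETREG1 had 5970 to 18375 reads per library in DLDPL, 7493 to 29324 in LDPL, 7769 to 23125 in DPL and 650 to 1337 in L. The authors' coverage column gives the percent of the 5331 listed bases of the gene that were covered by reads. Its lowest, median and highest values were 85.8, 87.2 and 88.4 in DLDPL, 86.1, 88.1 and 92.3 in LDPL, 84.2, 88.2 and 91.2 in DPL, and 63.8, 74.7 and 83.6 in L. Coverage falls with read number, so each library was also set against its own genes of 4000 to 7000 bases with a read number within 1.5 times that of RETREG1. Of those genes, the median share with lower coverage than RETREG1 was 6.72% in DLDPL, 11.3% in LDPL, 6.51% in DPL and 10.8% in L. RETREG1 was therefore covered over less of its listed length than most like genes in all 4 groups, the L group included.

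The neighbouring genes did not share the pattern. In the RefSeq order of pig genes (assembly Sscrofa11.1, used for names and order only), no annotated gene overlaps RETREG1. The gene before it with a value was ZNF622, which encodes a zinc finger protein of ribosome maturation. Its log2 difference from L was 0.09 in DLDPL, -0.01 in LDPL and 0.19 in DPL, with adjusted p of 0.786, 0.978 and 0.488 in the same order (edgeR quasi-likelihood test, Benjamini-Hochberg). The gene after it, MYO10, encodes the filopodial motor myosin X. Its log2 differences were -0.36, -0.16 and 0.11, with adjusted p of 0.180, 0.575 and 0.700 in the same test. MARCH11 and BASP1, the next genes outward, were not analysed here.

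RETREG2 and RETREG3, the paralogs of RETREG1 that share its reticulon homology domain and LC3-interacting region, were not called by edgeR in any comparison with L over all libraries. Per length, RETREG1 had a lowest, median and highest level of 43.7, 83.1 and 150 RPKM in DLDPL, 59.2, 104 and 213 in LDPL, 66.6, 76.9 and 188 in DPL, and 4.49, 6.32 and 10.0 in L. RETREG2 (ENSSSCG00000016207) had 12.8, 17.0 and 26.5 RPKM in DLDPL, 14.2, 18.8 and 21.0 in LDPL, 13.8, 16.7 and 20.2 in DPL, and 17.6, 20.8 and 22.8 in L. RETREG3 (ENSSSCG00000017395) had 3.46, 4.87 and 6.24 RPKM in DLDPL, 4.04, 4.55 and 5.81 in LDPL, 3.63, 4.40 and 5.23 in DPL, and 4.20, 5.32 and 8.53 in L. The most abundant family member was RETREG1 in the 3 groups and RETREG2 in L. RETREG1 made up a median of 80.8% of the summed family RPKM in DLDPL (70.1% to 84.0%), 82.2% in LDPL (70.1% to 89.3%), 79.9% in DPL (73.9% to 89.1%) and 19.9% in L (15.1% to 27.3%).

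**Figure D2:**
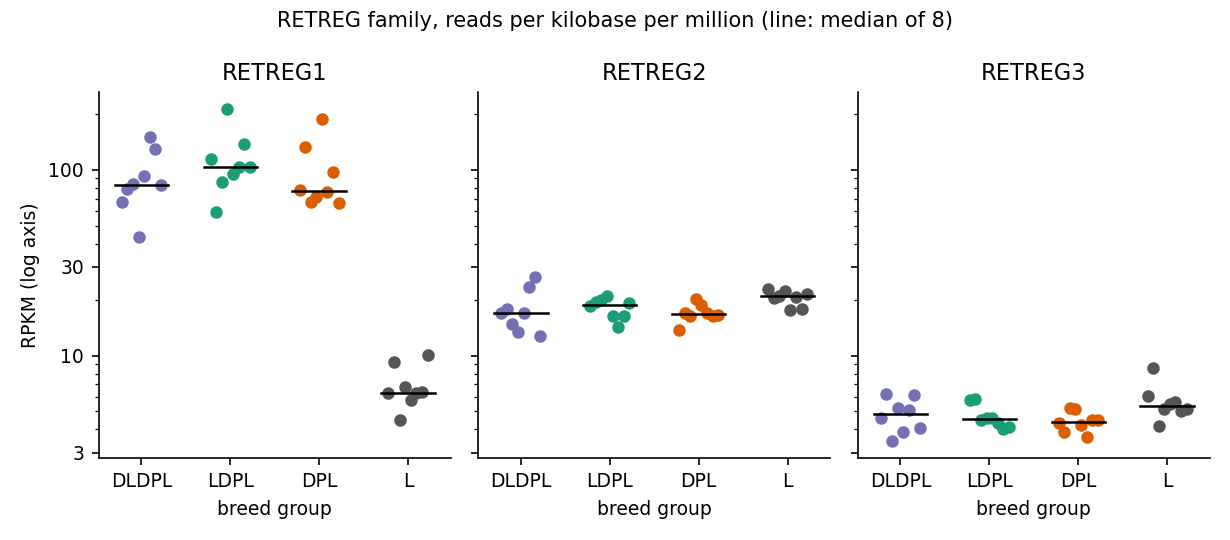
Level of RETREG1, RETREG2 and RETREG3 in RPKM on a log axis, with 1 point per library in DLDPL, LDPL, DPL and L (n = 8 each) and a line at each group's median. RETREG1 medians are 83.1, 104 and 76.9 RPKM in DLDPL, LDPL and DPL and 6.32 RPKM in L, while the RETREG2 and RETREG3 points of all 4 groups lie at similar heights.

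RETREG2 differed from L by -0.22 ± 0.11 (log2, SE) in DLDPL, with an edgeR adjusted p of 0.142. It differed by -0.13 ± 0.11 in LDPL, adjusted p 0.386, and by -0.12 ± 0.11 in DPL, adjusted p 0.418. RETREG3 differed by -0.20 ± 0.11 in DLDPL, -0.19 ± 0.11 in LDPL and -0.17 ± 0.11 in DPL, with edgeR adjusted p of 0.209, 0.205 and 0.214. Without L replicate 2 the edgeR adjusted p of RETREG2 in DLDPL was 0.0499, and limma on log2(RPKM + 1) gave 0.0378 for RETREG3 in DPL. A p that misses the threshold of 0.05 does not show that the paralogs were equal in the groups. Among all tested genes, 11.6% were called higher and 10.3% lower in DLDPL than in L, 14.9% and 14.7% in LDPL against L, and 19.1% and 18.9% in DPL against L. The same shares were 1.29% and 1.56% for LDPL against DPL, and 1.98% and 2.12% for DLDPL against DPL. For DLDPL against LDPL they were 0% and 0% by edgeR, with 969 genes at an unadjusted p under 0.05, and DESeq2 called 26 higher and 7 lower.

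Of the 9 ER-phagy receptors with a symbol in the files, RETREG1 was first by RPKM in every LDPL and DPL library, rank 1 or 2 in DLDPL libraries, and rank 5 or 6 in L libraries. Its median share of the summed RPKM of the 9 was 40.3% in DLDPL (24.0% to 47.4%), 42.4% in LDPL (31.2% to 58.7%), 39.2% in DPL (30.2% to 59.3%) and 4.11% in L (3.25% to 5.83%). The summed RPKM of the other 8 receptors was 142.5 ± 16.9 in DLDPL, 135 ± 10.9 in LDPL, 131 ± 17.2 in DPL and 152 ± 13.7 in L (SD, n = 8 each). The share of RETREG1 thus moved with its own level.

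By edgeR over all libraries, none of the other 8 receptors was called higher than in L, and 1 was called lower in each comparison. Of all tested genes, 11.6% were called higher and 10.3% lower in DLDPL, 14.9% and 14.7% in LDPL, and 19.1% and 18.9% in DPL. For 8 genes the counts are near these shares and are no result about the receptors. CALCOCO1, a soluble receptor that reaches ER tubules through VAP proteins, fell by 0.49 ± 0.16 (log2, SE) in DLDPL, with an edgeR adjusted p of 0.0231. In LDPL it fell by 0.53 ± 0.16, adjusted p 0.0106. In DPL its difference was -0.32 ± 0.16, adjusted p 0.1002, and without L replicate 2 it was called there, with an adjusted p of 0.0471. ATL3, an atlastin that fuses ER tubules and serves as a receptor for them, fell by 0.47 ± 0.11 in DPL, with an edgeR adjusted p of 0.00100. SEC62, a translocon protein that acts in recovery from ER stress, CCPG1, a receptor induced by ER stress, TEX264, a receptor of ER junctions, and CDK5RAP3, which pairs with the UFMylation machinery, were not called in any comparison with L. The median log2 difference of the 8 was -0.08 in DLDPL, -0.10 in LDPL and -0.01 in DPL, beside -0.02, -0.03 and -0.02 over all tested genes. RTN3, another receptor, was not analysed here.

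**Figure D3:**
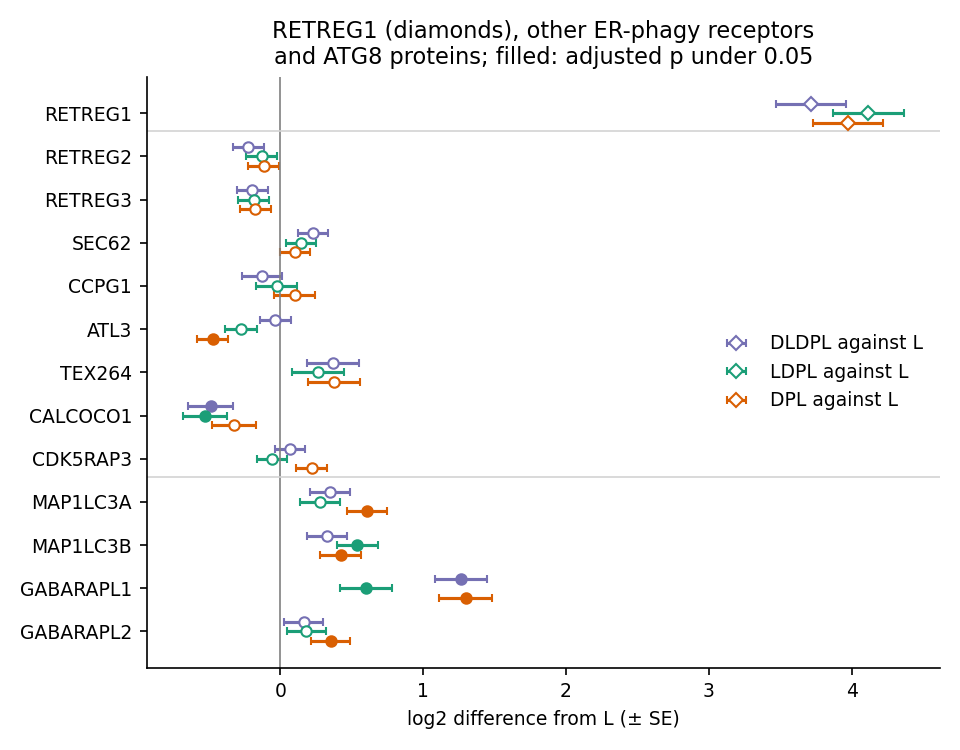
Log2 difference from L with its SE for RETREG1, 8 other ER-phagy receptors and 4 ATG8 proteins, in DLDPL, LDPL and DPL (n = 8 each); filled symbols have an edgeR adjusted p under 0.05 and RETREG1 is drawn as diamonds with no test. RETREG1 lies at 3.72, 4.12 and 3.97, GABARAPL1 at 1.26, 0.60 and 1.30, and the other receptors lie within 0.53 of 0.

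Of 15 tested proteins that bind, modify or induce RETREG1, 2 were higher and 2 lower in DLDPL than in L, 3 and 2 in LDPL, and 3 and 2 in DPL. These counts are near the shares over all genes, 11.6% and 10.3%, 14.9% and 14.7%, and 19.1% and 18.9%, and are no result about the group. CANX (calnexin), the ER chaperone through which RETREG1 recognises misfolded procollagen, rose by 0.32 ± 0.10 (log2, SE) in DLDPL, 0.35 ± 0.10 in LDPL and 0.50 ± 0.10 in DPL, with edgeR adjusted p of 0.0214, 0.00794 and 0.000198. UFSP2, the protease that removes UFM1, rose by 0.58, 0.60 and 0.96 in the same order. CAMK2G, a calcium-dependent kinase of the family that phosphorylates RETREG1, fell by 0.45, 0.43 and 0.64. CAMK2A, of the same family, was not called, with 0.04, -0.15 and -0.17 and edgeR adjusted p of 0.853, 0.417 and 0.325. UFL1, also in this list, was not called against L either, with 0.37, 0.16 and -0.12. TFEB and TFE3, transcription factors known to induce RETREG1 and lysosomal genes, were called in opposite directions in LDPL and DPL. TFEB averaged 40.3 ± 6.35 CPM in DLDPL, 40.1 ± 6.81 in LDPL and 41.3 ± 10.3 in DPL, and 57.2 ± 10.6 in L. It fell in all 3 comparisons, with edgeR adjusted p of 0.00742, 0.00513 and 0.00715. TFE3 rose by 0.31 in LDPL and 0.36 in DPL, with adjusted p of 0.0234 and 0.00650, and its difference in DLDPL was 0.14, adjusted p 0.336.

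Of 11 tested genes of ER membrane shaping, none was called higher and REEP1 was the only one called lower in all 3 comparisons with L. The lower calls were 1 in DLDPL, 1 in LDPL and 3 in DPL, beside 10.3%, 14.7% and 18.9% of all genes. The shares of all genes called higher were 11.6%, 14.9% and 19.1%. With 11 genes, these counts are no result about the list. REEP1, which like RETREG1 bends ER membrane, fell by 0.35 ± 0.12 (log2, SE) in DLDPL, 0.54 ± 0.12 in LDPL and 0.50 ± 0.12 in DPL, with edgeR adjusted p of 0.0345, 0.000975 and 0.00161. REEP5, a relative of REEP1, fell by 0.68 ± 0.18 in DPL, adjusted p 0.00316.

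The ATG8 proteins, to which the LC3-interacting region of RETREG1 binds, were higher where they were called. Of 4 tested, 1 rose in DLDPL, 2 in LDPL and 4 in DPL, and none fell. Of all tested genes, 11.6% rose and 10.3% fell in DLDPL, 14.9% and 14.7% in LDPL, and 19.1% and 18.9% in DPL. With 4 genes, the 1 call in DLDPL and the absence of falls say little. GABARAPL1 had 53.3 ± 12.8 CPM in DLDPL, 33.7 ± 9.86 in LDPL and 54.6 ± 14.8 in DPL, and 22.2 ± 5.30 in L. Its log2 differences were 1.26 ± 0.18, 0.60 ± 0.18 and 1.30 ± 0.18, with edgeR adjusted p of 7.93e-06, 0.0121 and 1.46e-06. MAP1LC3B rose by 0.54 in LDPL and 0.42 in DPL. MAP1LC3A rose by 0.60 and GABARAPL2 by 0.35 in DPL.

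Of 32 tested genes of the autophagy core machinery, 7 rose and 2 fell in DLDPL, where 11.6% and 10.3% of all genes did. In LDPL 10 rose and 3 fell, beside 14.9% and 14.7% of all genes, and in DPL 9 rose and none fell, beside 19.1% and 18.9%. The list medians, 0.02, 0.04 and 0.08 on the log2 scale, were close to 0. TP53INP2, which recruits ATG8 proteins to autophagosomes, had 119 ± 60.3 CPM in DLDPL, 122 ± 48.7 in LDPL and 171 ± 74.3 in DPL, and 43.0 ± 16.6 in L. VMP1, an ER protein needed for autophagosomes to form, rose by 0.93, 0.86 and 1.26 on the log2 scale in DLDPL, LDPL and DPL. WIPI1, which reads phosphoinositide on the forming membrane, rose by 0.42, 0.84 and 0.91. Of 11 tested receptors of other cargo, 2 rose in DLDPL, 2 in LDPL and 3 in DPL, and 1 fell, in DPL. SQSTM1 (p62), a receptor of ubiquitinated cargo, rose by 0.86 ± 0.18 in DLDPL, 1.22 ± 0.18 in LDPL and 0.85 ± 0.18 in DPL, with edgeR adjusted p of 0.000914, 6.77e-06 and 0.000423. Of 27 tested lysosomal genes, 4 rose and 2 fell in DLDPL, 3 and 4 in LDPL, and 5 and 3 in DPL, beside the all-gene shares just given. NPC1, a cholesterol exporter of the lysosome, rose to 19.0 ± 7.70 CPM in DLDPL, 16.4 ± 4.93 in LDPL and 16.4 ± 5.84 in DPL, against 8.23 ± 2.10 in L, and TPP1, a lysosomal peptidase, fell by 0.52, 0.93 and 0.74 on the log2 scale.

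No tested gene of the cargo side of ER-phagy was called higher than in L. RETREG1 is known to deliver misfolded procollagen to lysosomes. Of 14 tested collagen and secretory cargo genes, none rose, and 0 fell in DLDPL, 5 in LDPL and 8 in DPL against L. Of all tested genes, 11.6% rose and 10.3% fell in DLDPL, 14.9% and 14.7% in LDPL, and 19.1% and 18.9% in DPL. COL3A1, the fibrillar collagen chain of soft tissue, had 710 ± 282 CPM in DLDPL, 518 ± 195 in LDPL, 231 ± 114 in DPL and 1034 ± 225 in L. Collagen comes from fibroblasts, and 0 of 5 fibroblast markers were called in DLDPL, with 2 lower in LDPL and 2 lower in DPL. These markers share COL3A1 with the collagen list, so they are no separate readout of fibroblasts. Their summed level was 286 to 779 RPKM in DLDPL, 221 to 584 in LDPL, 165 to 514 in DPL and 370 to 906 in L, and its part in the collagen values was not tested. In bulk muscle, fewer cells of a type and less RNA per cell cannot be told apart. Of 9 tested genes of the sarcoplasmic reticulum, 3 fell in DLDPL, 2 in LDPL and 5 in DPL, and none rose, beside the same all-gene shares. The muscle fibre markers, which share ATP2A1 and CASQ1 with this list, moved with them: of 8 tested, 2 fell in DLDPL, 2 in LDPL and 5 in DPL, with median log2 differences of -0.35, -0.34 and -0.57, and 1 rose, in DPL. Their part in these values was not tested. ATP2A1, the calcium pump of fast fibres, fell by 0.65 ± 0.14 (log2, SE) in DLDPL, 0.72 ± 0.14 in LDPL and 0.73 ± 0.14 in DPL, with edgeR adjusted p of 0.00122, 0.000286 and 0.000153. HRC, a calcium-binding protein of its lumen, fell by 0.76, 0.95 and 0.72.

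Because RETREG1 loss is known for its effect on sensory neurons, nerve markers were read beside its level. Of 3 tested nerve and Schwann cell markers, UCHL1 was higher in DPL than in L, where 19.1% of all genes were. No other call was made in a comparison with L. Against DPL, 1 of the 3 was lower in LDPL and 1 in DLDPL, beside 1.56% and 2.12% of all genes. The summed level of the 5 nerve markers found was 3.05 to 15.3 RPKM in DLDPL, 4.31 to 10.1 in LDPL, 4.86 to 38.0 in DPL and 2.51 to 12.4 in L. These ranges overlap. RETREG1 was chosen for ranges in L and in the other groups that do not, so the contrast carries no weight. The part of nerve in the RETREG1 level was not tested. UCHL1 had r = 0.06 with RETREG1 within groups.

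Other gene groups had more higher than lower calls in the same 3 comparisons, all of which use the same L libraries. Of all tested genes, 11.6% were called higher and 10.3% lower in DLDPL, 14.9% and 14.7% in LDPL, and 19.1% and 18.9% in DPL. The unfolded protein response, which adjusts the folding capacity of the ER, had 5 higher and 1 lower of 19 tested in DLDPL, 6 and 1 in LDPL, and 8 and 1 in DPL. HSPA5, the main ER chaperone, rose by 0.39, 0.42 and 0.74 on the log2 scale, and DNAJB9, its co-chaperone, by 0.83, 1.13 and 0.66. The list medians were 0.11, 0.18 and 0.28. Genes of fasting and glucocorticoid response had 8 higher of 14 tested in DLDPL, 9 in LDPL and 9 in DPL, and none lower, with medians of 0.75, 0.85 and 0.78. PDK4, which blocks pyruvate oxidation, had 1967 ± 585 CPM in DLDPL, 2601 ± 1278 in LDPL and 3689 ± 1606 in DPL, and 572 ± 343 in L. FOXO1, the transcription factor that induces autophagy genes in fasting muscle, rose by 1.66, 1.77 and 1.45. Immediate early genes, whose transcripts appear quickly after stress or stimulation, had 17 higher of 19 tested in DLDPL, 17 in LDPL and 18 in DPL, and none lower. Their medians, 2.48, 2.55 and 3.21, were the largest of the pathway lists. This list was compiled with results of these data known, and the other lists were also chosen with earlier results known. None of these counts is therefore independent evidence of a direction.

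Among the 3735 genes that have a symbol and average 5 RPKM or more, the profile most like that of RETREG1 was sought over all 32 libraries. The measure was the root mean square difference of log2 CPM after removing each gene's mean, and its median over the genes was 1.73. The smallest values were 0.54 for MAFF, a small MAF transcription factor, 0.57 for SLC19A2, a thiamine transporter, 0.64 for CSRNP1, an immediate early nuclear protein, and 0.68 for SMPDL3A, a secreted phosphodiesterase. They were followed by 0.74 for PPP1R15A (GADD34), which reverses the stress block on translation, 0.78 for ABHD2, a lipid hydrolase, 0.80 for CCN1, a matricellular protein, and 0.83 for NFIL3, a leucine zipper repressor. Since likeness to RETREG1 chose these 8 genes, their levels are a description.

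SLC19A2 had a lowest, median and highest level of 49.1, 108 and 163 CPM in DLDPL, 66.8, 88.1 and 177 in LDPL, 50.2, 75.5 and 121 in DPL, and 6.28, 7.57 and 13.8 in L. MAFF had 19.7, 101 and 133 CPM in DLDPL, 44.0, 96.7 and 153 in LDPL, 71.7, 98.7 and 190 in DPL, and 3.08, 5.40 and 7.01 in L. SMPDL3A had 10.4, 28.9 and 62.9 CPM in DLDPL, 16.9, 38.6 and 65.3 in LDPL, 25.3, 55.8 and 109 in DPL, and 1.69, 3.78 and 9.70 in L. As with RETREG1, no library of the 3 groups overlapped with L in 6 of the 8 genes, the exceptions being CCN1 and NFIL3. All libraries of the 3 groups lay above L in 1.23% of all tested genes. The choice by likeness over all 32 libraries favours such genes, so the count is no further evidence of likeness. The order among the 3 groups was not that of RETREG1 in every case: SMPDL3A was 6.34-fold higher than L in DLDPL, 9.14-fold in LDPL and 13.2-fold in DPL. The correlation of these genes with RETREG1 after removal of group means was positive for all 8, between 0.27 and 0.65 over 32 libraries, and positive in each of the 4 groups for 5 of them. The choice by likeness favours a positive correlation too.

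**Figure D4:**
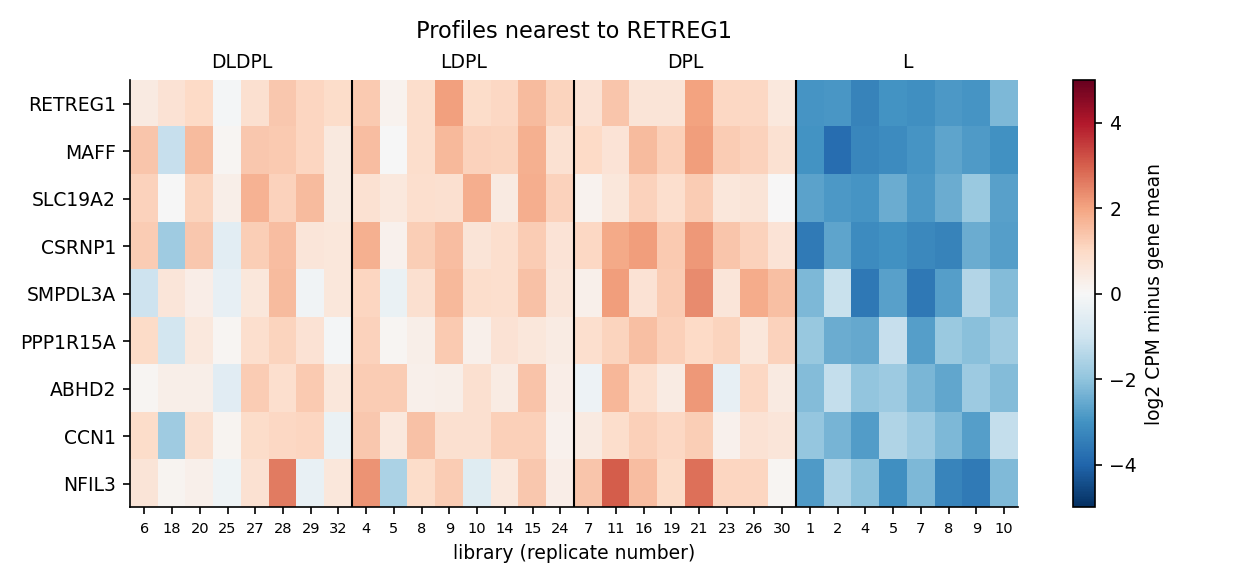
Log2 CPM minus the gene's mean, as colour, for RETREG1 and the 8 genes with the nearest profile (rows) in the 32 libraries (columns, by group and replicate number). All 9 genes are low in the L libraries. SMPDL3A and NFIL3 have the highest within-group r with RETREG1 over the 32 libraries, 0.65 and 0.62. For NFIL3, r is -0.02 in L, and 0.47 without the 2 libraries farthest from their group mean in RETREG1. By Spearman, NFIL3 has 0.50 and CSRNP1 0.55.

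The variation of RETREG1 between pigs of a group was then used on its own. Each gene was fitted on the log2 CPM of RETREG1 with group means removed, with the group as a factor, so that the difference that chose RETREG1 did not enter. None of 12820 genes was called (0% positive and 0% negative) by the edgeR quasi-likelihood test with Benjamini-Hochberg adjustment, and the smallest adjusted p was 0.104. At an unadjusted p under 0.05 there were 1020 genes, or 7.96%. DESeq2 called 14 genes with a positive and 2 with a negative slope, and limma on log2(RPKM + 1) called 125 and 1. Slopes that differed between groups were called for 0 genes by edgeR (0%), with 460 genes, or 3.59%, at an unadjusted p under 0.05; other tools were not run for this test. Over all genes the median within-group r was -0.01, the 5th percentile was -0.35 and the 95th percentile was 0.34.

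The 10 genes with the highest r, among those with r of 1 sign in all 4 groups, were ASB5, DCAF12, ARPC1A, SMPDL3A, SYNRG, OSER1, ZNF207, HSF2, HNRNPH1 and ARID5B. ASB5, a substrate adaptor of a ubiquitin ligase in muscle, had r = 0.66 (Spearman 0.69) over 32 libraries and 0.59 without the 2 libraries farthest from their group mean in RETREG1. Its r was 0.65 in DLDPL, 0.70 in LDPL, 0.82 in DPL and 0.59 in L. Its slope was 0.50 ± 0.11 log2 units per log2 unit of RETREG1, with an edgeR adjusted p of 0.104 and a DESeq2 adjusted p of 0.00923. SMPDL3A had r = 0.65 (Spearman 0.65), 0.54 without those 2 libraries, and 0.68, 0.94, 0.67 and 0.41 in DLDPL, LDPL, DPL and L. Its slope was 1.04 ± 0.23, with an edgeR adjusted p of 0.104 and a DESeq2 adjusted p of 0.00657. DCAF12, another substrate adaptor of a ubiquitin ligase, had r = 0.65 and a slope of 0.35 ± 0.08. HSF2, a heat shock transcription factor, had r = 0.59, and 0.69 without the 2 libraries. The genes were picked for their r from 3735, so the values of r are a description, and none passed the edgeR threshold, while limma on log2(RPKM + 1) called all 10.

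The 10 lowest were SEMA6C, PRKAG3, LAPTM4B, IL13RA1, CDKN2C, MAGED1, ZDHHC16, ANKRD23, DNMT3A and TRAPPC2L. SEMA6C, a transmembrane semaphorin, had r = -0.64 (Spearman -0.63) and -0.63 without the 2 libraries, and its r was -0.87 in DLDPL, -0.48 in LDPL, -0.70 in DPL and -0.55 in L. Its slope was -0.39 ± 0.09, with an edgeR adjusted p of 0.164 and a DESeq2 adjusted p of 0.0357. PRKAG3, the muscle subunit of AMP-activated kinase whose variants alter glycogen in pig muscle, had r = -0.60 (Spearman -0.57) and -0.52 without the 2 libraries. DNMT3A, a DNA methyltransferase, had r = -0.53.

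**Figure D5:**
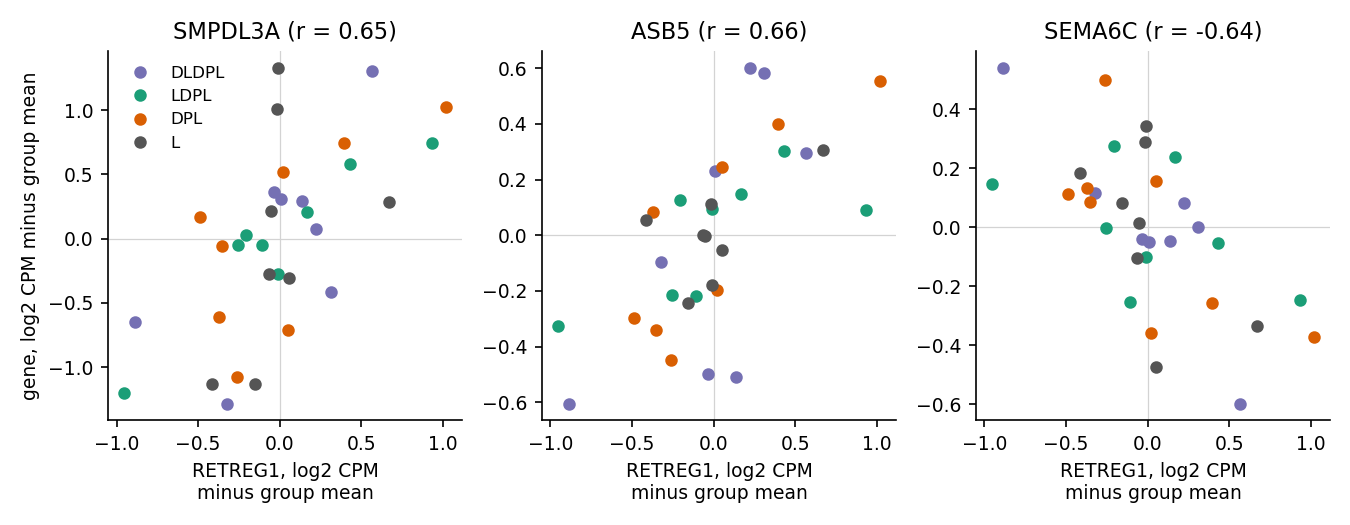
Log2 CPM of SMPDL3A, ASB5 and SEMA6C against that of RETREG1, both minus the group mean, with 1 point per library coloured by group (32 libraries). ASB5 and SMPDL3A slope upward, with r of 0.66 and 0.65, and SEMA6C slopes downward, with r of -0.64.

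The calls against L were then read for the 10 genes with the highest and the 10 with the lowest r. Their within-group r did not use group means, but the condition of 5 RPKM on average over all libraries did. SMPDL3A, with a mean of 3.31 RPKM in L, and ARID5B, with 4.62, met it only through the other groups. Both were called higher in all 3 comparisons. No slope of the picked genes was called by edgeR, and genes picked for like r can vary together. The counts are therefore a description. Of the 10 with the highest r, 6 were called higher in DLDPL than in L, 7 in LDPL and 9 in DPL, and none lower. The picks had to be among the 601 genes with r of 1 sign in all 4 groups. Among all 3735 genes, which did not have to pass that condition, the shares called higher were 18.9%, 24.8% and 31.4%. Of the 10 with the lowest r, 3 were called lower in DLDPL, 4 in LDPL and 5 in DPL, and none higher, against 7.90%, 10.5% and 13.9% of the 3735. ASB5 had 513, 822 and 1183 CPM as lowest, median and highest DLDPL value, 613, 819 and 947 in LDPL, 550, 725 and 1103 in DPL, and 306, 362 and 447 in L, with no overlap with L. It rose by 1.17 ± 0.17, 1.09 ± 0.17 and 1.09 ± 0.17 (log2, SE) in DLDPL, LDPL and DPL, with edgeR adjusted p of 5.67e-06, 8.30e-06 and 4.88e-06. SYNRG, a trafficking adaptor of the Golgi, was not called in any of the 3, with differences from L of -0.09, -0.05 and 0.01. ARPC1A and HNRNPH1 were not called in DLDPL or LDPL, nor was DCAF12 in DLDPL.

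Of 19 unfolded protein response genes, 18 had a positive r (median 0.25) and 6 an unadjusted edgeR p under 0.05, among them DNAJB9 and CANX, each with r = 0.46. Of 19 immediate early genes, 16 had a positive r (median 0.23) and 6 an unadjusted p under 0.05, with MYC at 0.52 and NR4A3 at 0.05. Of 14 fasting and glucocorticoid genes, 10 had a positive r (median 0.19) and 4 such a p, among them PDK4 with 0.45 and TRIM63, a muscle ubiquitin ligase of atrophy, with 0.44. Of 27 lysosomal genes, 18 had a positive r (median 0.04) and 4 such a p: SCARB2, which carries an enzyme to the lysosome, with 0.56, LAMP2, a lysosomal membrane protein, with 0.52, NPC1 with 0.35 and TPP1 with -0.37. Some other lists had few genes with a positive r. It was positive for 2 of 11 genes of ER membrane shaping (median -0.05) and 2 of 14 collagen and secretory cargo genes (-0.09). It was positive for 1 of 9 sarcoplasmic reticulum genes (-0.11) and 0 of 8 fibre markers (-0.14). Among the ER-shaping genes, LNPK had r = 0.51 (-0.20 in L) and an unadjusted edgeR p of 0.00599. Of 4 ATG8 proteins, 2 had a positive r (median -0.05). GABARAPL1 among them had 0.46, with an unadjusted edgeR p of 0.0114, and 0.22 without the 2 libraries farthest in RETREG1. Of 8 ER-phagy receptors, 3 had a positive r (median -0.06). Over all tested genes 48.2% had a positive r and the median was -0.01, so the receptors lay near the background. No list was tested as a set. No gene of any list was called after adjustment over all genes.

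The within-group level of RETREG1 was set against 5 measures of the libraries. Over 32 libraries and with group means removed, r was -0.01 with the mitochondrial share of reads, -0.14 with total reads, -0.13 with the median coverage of long genes, -0.02 with the number of genes listed and 0.12 with the TMM factor. Spearman's rho was -0.03, -0.10, -0.09, -0.06 and 0.04 in the same order. Two-sided permutation p-values of r, from 100000 permutations within groups, were 0.951, 0.493, 0.535, 0.894 and 0.482, and the smallest adjusted over the 5 was 0.892. Without the 2 libraries farthest from the median of each measure, r was -0.10, -0.20, 0.11, -0.02 and 0.11.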

How the data were processed

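RNA-seq of loin muscle from 32 pigs in 4 breed groups was analysed from 1 deposited file per library. Its values are, per the file headers, raw counts of reads that mapped uniquely to a gene, and the authors' RPKM, which scales those counts to the listed length in kilobases and to the total in the header. The authors also deposited the length in bases and the percent of it covered by reads. Cufflinks, Bowtie 0.12.2 and mm8, a mouse build, appear in the submitters' processing notes. The pig build and annotation were not given in the sources used here, and positions are left out. Per the labels, the library kit does not mark the strand. A gene missing from a file was given a count of 0. Symbols were found for 10836 of 17930 identifiers (60.4%).

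filterByExpr of edgeR 4.0.16 (R 4.3.3, minimum count 10, minimum total 15) kept 12821 genes with 99.97% of the reads, RETREG1 among them. After TMM scaling, 1 quasi-likelihood model over 32 libraries tested the 6 pairs of groups (common biological coefficient of variation 0.285). A second model tested each gene's slope on the group-centred log2 CPM of RETREG1 (prior count 2), and another model its interaction with the group. P-values were adjusted over all genes by Benjamini-Hochberg, with a threshold of 0.05, and every adjusted p is from edgeR unless another tool is named. A log2 difference over the square root of its F gives its SE. The tests were checked on data with known answers. DESeq2 1.42.0, limma 3.58.1, other scalings, filters, covariates and subsets of libraries were alternatives.

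The gene, the lists and the tests were chosen with earlier results of these data known. Named genes were the RETREG family and ER-phagy receptors, up to 4 members of each other list with the smallest adjusted p of the slope, the 10 highest and 10 lowest within-group r of 1 sign in the 4 groups, the 8 nearest profiles, and the neighbours. Other genes named, such as TFEB, TFE3, CAMK2G, UFSP2, TP53INP2, WIPI1, FOXO1, HSPA5, ATP2A1, UCHL1 and NR4A3, were chosen after their values were seen.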

Additional observations from a re-analysis of the deposited data

Results flagged for a closer look

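Among 78 named genes, 316 groups of 8 libraries were checked for a library whose gap to the next, divided by the range of the group on the log2 scale, exceeded Dixon's critical value at the 95% level. This was so in 13, and chance flags about 1 group in 20. RETREG1 itself had such a library in L, replicate 10, with 54.6 CPM and a ratio of 0.568; it is the L library nearest to the other groups, yet lies below all of them.

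DLDPL replicate 28, the highest DLDPL library in RETREG1, was also the highest for LAMP2 (101 CPM, ratio 0.617) and for NFIL3 (89.9 CPM, ratio 0.622), while DLDPL replicate 25, the lowest in RETREG1, was the lowest for SYNRG (18.5 CPM, ratio 0.585). LDPL replicate 9, the highest LDPL library in RETREG1, was the lowest for COL1A2 (59.8 CPM, ratio 0.539). Among receptors and ER-shaping genes, the ratio was 0.543 for TEX264 in DLDPL replicate 18 (highest), 0.646 for REEP1 in DPL replicate 7 (highest) and 0.599 for REEP2 in L replicate 8 (lowest). HRC had a lowest library in DLDPL, replicate 29 (ratio 0.661), a lowest in LDPL, replicate 4 (0.591), and a highest in DPL, replicate 23 (0.5264). TRIM63 was lowest in L replicate 2 (0.549) and SLC19A2 highest in L replicate 9 (0.562).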

How the results depend on the processing

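RETREG1 kept its direction in each comparison with L under the alternatives for which its level was recorded. Its log2 differences were 3.49 to 3.73 for DLDPL, 3.81 to 4.12 for LDPL and 3.57 to 3.99 for DPL. These alternatives were DESeq2 size factors in edgeR, mitochondrially encoded genes left out, limma on log2(RPKM + 1), and L replicate 2 left out. Its level was not recorded for the DESeq2 test, without the filter, with only 2 groups or with the replicate block. What depended on the method was the number of other genes called, given here with the number reported above in parentheses. Without a filter on low counts, LDPL against DPL had 130 lower genes (200 with it), DLDPL against LDPL had 2 lower (0) and the slope on RETREG1 had 2 negative (0). DESeq2 called 270 higher (166) and 347 lower (200) in LDPL against DPL, 425 lower (272) in DLDPL against DPL, 26 higher and 7 lower in DLDPL against LDPL (edgeR 0 and 0), and 14 positive and 2 negative slopes (0 and 0). Limma on log2(RPKM + 1), which has no TMM scaling, called 1266 higher and 3388 lower in DPL against L (2455 and 2418), 1226 and 2055 in LDPL against L (1905 and 1888), 141 and 51 in LDPL against DPL (166 and 200), 402 and 49 in DLDPL against DPL (254 and 272), and 125 positive and 1 negative slope. On that scale the median of all genes was -0.12 in DPL against L, where it was -0.02 after TMM. Under it the uncalled differences of SEC62 and CCPG1 in DPL against L changed sign, to -0.059 and -0.065, both 0.10 by edgeR. Over 7 alternatives each, differences of 4 receptors that were not called had adjusted p of 0.0499 to 0.193 (RETREG2 in DLDPL, lowest without L replicate 2), 0.0378 to 0.297 (RETREG3 in DPL, limma), 0.0160 to 0.157 (CALCOCO1 in DPL, limma; also called without L replicate 2) and 0.0375 to 0.132 (ATL3 in LDPL, 2 groups only). With only the 2 groups compared in the fit, LDPL against DPL had 67 higher and 93 lower, and DLDPL against DPL 135 and 116. The cause of these shifts was not tested. L and LDPL share 5 replicate numbers, whose deviations correlated between -0.10 and 0.07. That is no sign of pairing by number, but a weak pairing could give such low values too. A fit with the shared numbers as a replicate block, on those 10 libraries, called 993 higher and 808 lower in LDPL against L. The same libraries without the block gave 1191 and 979.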
